A study of Homo sapiens with 2 samples.

Results

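Deubiquitinases are the proteases that remove ubiquitin from proteins. Their transcripts were examined in Huh7, an established human hepatocellular carcinoma line, by a rule on gene symbols: USP followed by a digit, OTUD, OTUB or UCHL at the start of the symbol, or a place in a short list of names that includes STAMBP, STAMBPL1, BRCC3, ATXN3, JOSD1, JOSD2, YOD1 and ZRANB1. USP18, which removes the interferon-induced modifier ISG15, was left out by the rule. Of 11579 named genes with a value on both arrays, 51 met it, through 70 probes. The rule goes by spelling, and 2 of the 51 belong to no deubiquitinase family. USP6NL encodes a GTPase-activating protein of RAB GTPases, and OTUD6B-AS1 is an antisense RNA of OTUD6B. The remaining 49 carry the names of deubiquitinase families, though a member by sequence need not be an active protease, as with USP39. They comprise 33 genes of the USP family, 7 of the OTU family, 3 of the UCH family, 3 JAMM metalloproteases and 3 Josephin-domain genes. A further 29 symbols that fit the rule were null on both arrays, among them 9 of the USP17 multicopy family, USP20, USP25, USP28 and OTUD4. These were not measured here.

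One array held Huh7 cells that had received the lentiviral vector alone (vector, n = 1). The other held Huh7 cells whose lentivirus encoded an shRNA targeting CD133 (shCD133, n = 1). The series concerns STAT3 and CD133, a surface marker of liver cancer stem cells, and the arrays address which transcripts differ when CD133 is reduced. With 1 array per condition no value has a replicate error and no test was possible, so every difference below describes these 2 arrays. The sources used here do not give the hairpin's sequence, and a difference due to the loss of CD133 and one due to the hairpin or the infected culture cannot be told apart. Values are the authors' normalized log2 intensities, a gene takes its probe with the highest mean, and a difference is shCD133 minus vector on the log2 scale. A difference of at least 1, which is 2-fold, was counted.

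PROM1, which encodes CD133, had a log2 intensity of 13.58 with the vector and 10.83 with shCD133, a 6.72-fold lower intensity. Of 14 hepatocyte and hepatoma markers 13 had a value, including albumin (ALB, 15.48 and 15.47) and alpha-fetoprotein (AFP, 14.96 and 15.10), with a median difference of 0.14. Of these 13, APOA2 (14.78 and 12.97) and FGB (13.80 and 12.47) were at least 2-fold lower with shCD133. The other FGB probe differed by -0.71, short of 2-fold. Of 22 fibroblast, leukocyte and endothelial markers 12 had a value, and the T cell gene CD3D was lower with shCD133 (9.71 and 7.504) while the monocyte gene CD14 was higher (8.32 and 9.92). The myeloid gene LYZ read 12.81 and 12.64, a difference of -0.17 (its other probe 1.51), and CD68 differed by -0.09. The collagen genes COL1A2 (11.55 and 12.50, a difference of 0.94) and COL1A1 (0.74) had higher values with shCD133. The remaining 6 lay between -0.16 and 0.07. Of these the fibroblast gene LUM was bright (13.46 and 13.45), whereas DCN, PDGFRB, CD79A, MS4A1 and PECAM1 were under 8 on both arrays. The part of other cell types in the results was not tested. Levels under about 8 lie near the lowest value in the data, 6.65, where differences are compressed, and 9 of the 51 genes had a mean level under 8.

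Ubiquitin is attached to proteins as single units or as chains that send them to the proteasome, move them between membranes or alter their partners. Deubiquitinases reverse this, and most are cysteine proteases: the large USP family, the OTU family with its preference for particular chain linkages, the UCH family that acts on small adducts, and the Josephin family. The JAMM family consists of zinc metalloproteases. Many act only inside complexes, such as the proteasome, the SAGA transcription coactivator or DNA damage complexes, where partner subunits place or activate them.

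More deubiquitinases had lower than higher values with shCD133. Of the 51 genes 7 were at least 2-fold lower, which is 13.7%, against 8.26% of all named genes. None was at least 2-fold higher, against 2.08% of all named genes. The median difference was -0.23 (quartiles -0.74 and 0.23), whereas the median of all named genes was 0.11, and 30 of the 51 (58.8%) lay below 0, against 40.7% of all named genes. Only USP24 and USP14 were at least 4-fold lower, while 1.03% of all named genes were. At 1.5-fold, 16 of the 51 were lower (31.4%, against 16.3% of all named genes) and 4 were higher (7.84%, against 12.3%).

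**Figure D1:**
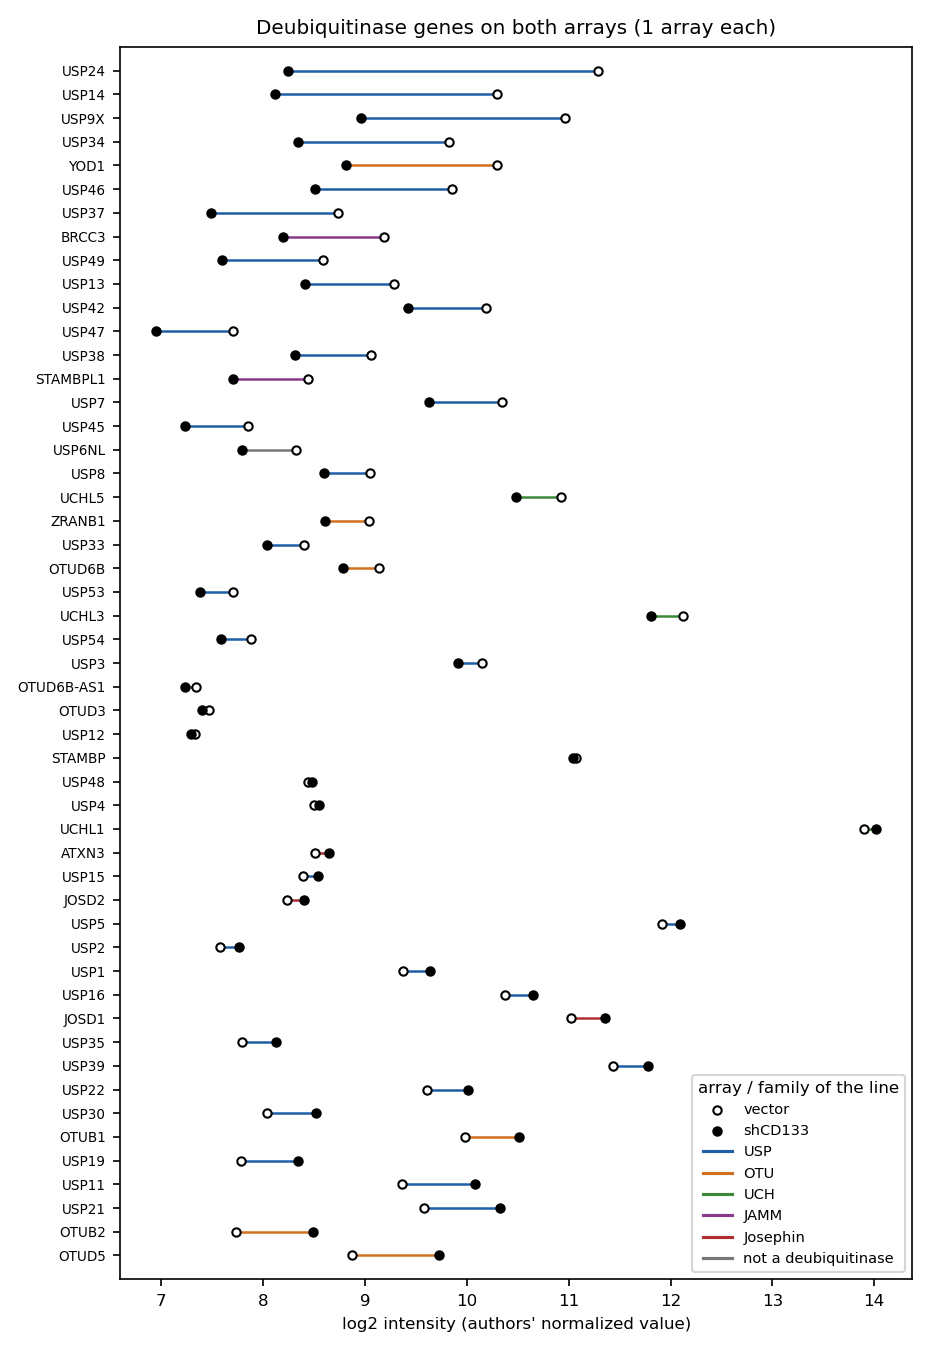
Each line is 1 of the 51 genes, ordered by difference, from its log2 intensity with the vector (open circle) to that with shCD133 (filled circle), 1 array each, with the line coloured by family. The 7 genes at the top are at least 2-fold lower with shCD133, from USP24 (-3.04) to USP37 (-1.25), and the highest difference, at the bottom, is that of OTUD5 (0.86).

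**Figure D2:**
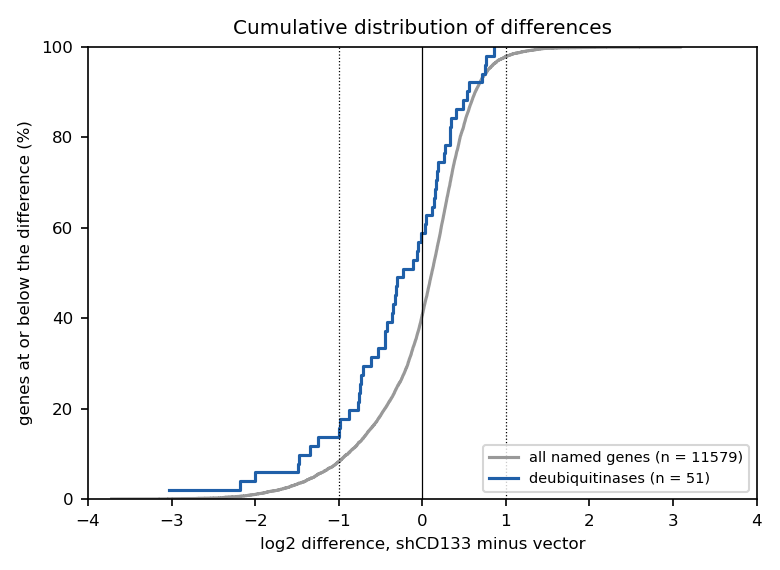
Share of genes (%) at or below each log2 difference for the 51 genes and for all 11579 named genes, with dotted lines at 2-fold. The curve of the 51 genes lies to the left over most of the range, with medians of -0.23 and 0.11, and reaches 100% at 0.86.

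USP24 had the largest difference in the set. USP24 encodes a very large protease that stabilises DNA repair and survival proteins. Its 1 probe (ILMN_1684594) had a log2 intensity of 11.28 on the vector array and of 8.25 after shCD133, which is a difference of -3.04 (8.21-fold lower). The intensity with shCD133 was 12.2% of that with the vector, and only 6 of the 11579 named genes had a lower difference, which puts USP24 at rank 7. USP9X, a relative of USP24, is an X-linked protease that stabilises the survival protein MCL1 and acts on SMAD4 in TGF-beta signalling. USP9X stood at 10.96 with the vector and 8.96 with shCD133 (-1.998, 3.996-fold lower) on ILMN_1656165. Its second probe differed by -1.45, from 8.61 to 7.16, and both USP9X probes were thus past 2-fold.

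USP14 is one of the deubiquitinases that dock on the proteasome and trims ubiquitin chains from proteins held there. The brighter USP14 probe (ILMN_2402947) read 10.29 on the vector array against 8.11 after shCD133 (-2.18, 4.53-fold lower). Its other probe read 9.08 and 7.66, a difference of -1.42. USP34 removes ubiquitin from AXIN in the Wnt pathway, and its probe (ILMN_1739454) read 9.83 and 8.35, 2.79-fold lower with shCD133. USP37 stabilises cyclin A at the start of S phase. It read 8.74 and 7.49 on ILMN_1686319, a difference of -1.25, with the shCD133 value in the dim range.

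USP46 is activated by the WD-repeat protein WDR48 and is known in worms for the turnover of glutamate receptors. USP46 read 9.86 on the vector array against 8.51 after shCD133 on its brighter probe (ILMN_1724410), which is -1.35. The other USP46 probe read 9.52 and 7.36, a difference of -2.16, so that the size depended on the probe. YOD1, an OTU protease that works with the segregase VCP in the removal of proteins from the endoplasmic reticulum, was the 1 gene outside the USP family past 2-fold. YOD1 read 10.30 and 8.82 on ILMN_1678919, 2.79-fold lower with shCD133.

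Of the genes past the 2-fold threshold USP37 (-1.25) was the nearest to it. Just short of it were BRCC3, from 9.19 to 8.20 (-0.99), and USP49, a histone deubiquitinase, from 8.58 to 7.60 (-0.99). USP13, which is known to act on the melanocyte factor MITF and on autophagy regulators, differed by -0.88 on its brighter probe, from 9.28 to 8.41, and by -1.78 on the other, from 9.34 to 7.56. USP13 is thus counted among the lower genes or not depending on the probe taken.

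The error that these data do hold is the disagreement between probes of a gene. Of the 51 genes 35 had 1 probe and 16 had several. The SD of the difference per probe, from the 2 brightest probes of each gene, was 0.33 over these 16 genes and 0.33 over all 2907 named genes with several probes. Over the 2907 it depended on level. It was 0.40 where the dimmer probe was under 8, 0.30 from 8 to 10 and 0.20 at 10 and above. All 3 of the 2-fold lower genes that had several probes, USP14, USP9X and USP46, were past 2-fold on each probe, and the other 4 rest on 1 probe each. In 5 genes, USP1, USP4, USP15, USP48 and STAMBP, probes differed in opposite directions, by at most 0.51. For USP48, a nuclear protease, 4 probes gave 0.04, -0.51, -0.02 and -0.45 from the brightest to the dimmest.

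**Figure D3:**
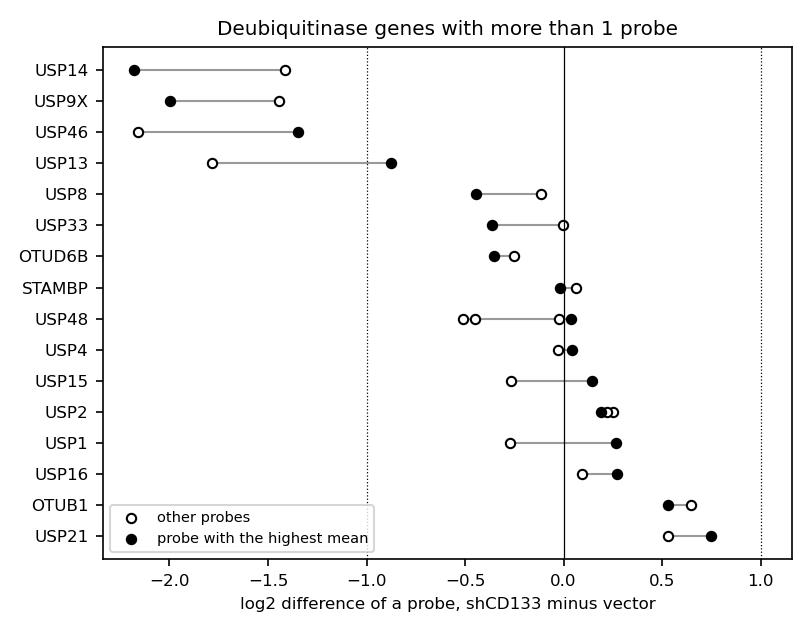
Log2 difference (shCD133 minus vector) of every probe for the 16 genes with more than 1 probe, with the probe of the highest mean filled and dotted lines at 2-fold. USP14, USP9X and USP46 lie past 2-fold on all probes, USP13 on 1 of 2, and probes of USP1, USP4, USP15, USP48 and STAMBP lie on both sides of 0.

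Within the USP family 6 of 33 genes were at least 2-fold lower (18.2%, against 8.26% of all named genes), and the median was -0.30, against 0.11. The USP median was -0.11 with the trend on gene length removed, where the median of all genes is 0. Short of the threshold on the lower side stood USP42, which acts on p53, at -0.77, USP47 at -0.76 (7.71 and 6.95, both dim), USP38 at -0.75, USP7 at -0.71 and USP45 at -0.62. USP7 is the protease that protects both MDM2 and p53, and it read 10.34 with the vector and 9.63 with shCD133. USP8, which sorts receptors at endosomes, differed by -0.45, and USP3, which acts on histones, by -0.23. The differences of USP53 (-0.32), USP54 (-0.30), USP33 (-0.36) and USP12 (-0.05) were within about 1 probe SD of 0.

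At the other end of the USP family, USP21 differed by 0.75, from 9.58 to 10.32, and its second probe by 0.53. USP11, an X-linked nuclear protease linked to DNA repair, differed by 0.72, from 9.36 to 10.08. USP19, anchored in the endoplasmic reticulum, differed by 0.56 and USP30, which opposes Parkin on the outer mitochondrial membrane, by 0.48. USP22, the protease of the SAGA complex, stood at 0.41 and USP39, a splicing factor without protease activity, at 0.34. USP5, which recycles free ubiquitin chains, read 11.92 and 12.09, a difference of 0.17. USP16, a histone deubiquitinase of mitosis, was at 0.27, USP1, which acts on the Fanconi anaemia protein FANCD2, at 0.27 and USP2 at 0.19. None of these reached 2-fold.

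In the OTU family (7 genes, median -0.07) values ran from YOD1 at -1.48 to OTUD5 at 0.86. OTUD5, which restrains type I interferon induction through TRAF3, had the highest difference of all 51 genes, from 8.87 with the vector to 9.73 with shCD133. OTUB2 read 7.73 and 8.49, a difference of 0.76. OTUB1, which also blocks ubiquitin-conjugating enzymes without using its protease activity, read 9.98 and 10.51 (0.53), and its other probe differed by 0.65. ZRANB1, also called TRABID and linked to Wnt signalling, differed by -0.43, OTUD6B by -0.36 and OTUD3 by -0.07. The OTU genes were therefore spread to both sides, with 4 of 7 below 0.

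The remaining families were small and held no 2-fold difference. UCHL1, a protease abundant in neurons and in some tumours, read 13.90 and 14.02, UCHL3 12.13 and 11.81, and the proteasome-bound UCHL5 10.92 and 10.48 (-0.44). All 3 JAMM genes lay below 0: BRCC3 at -0.99, STAMBPL1 at -0.73 and STAMBP at -0.02. All 3 Josephin genes lay above 0: JOSD1 at 0.33, JOSD2 at 0.16 and ATXN3, the gene of Machado-Joseph disease, at 0.14. Of all 11579 named genes 4718 lay below 0 and 6857 above, so with 3 genes each no family stands apart by these counts. USP6NL and OTUD6B-AS1, the genes that are not deubiquitinases, differed by -0.53 and -0.11.

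Close relatives often differed from one another by more than the probe SD of 0.33. That SD is for the difference of 1 probe, and a gap between 2 genes carries the error of both. The quartiles of all named genes were -0.30 and 0.39, so gaps of this size are not particular to relatives. USP46 (-1.35) and USP12 (-0.05) are closely related partners of WDR48, but USP12 was dim on both arrays (7.33 and 7.29). USP13 (-0.88) and USP5 (0.17) share the architecture of isopeptidase T. USP38 stood at -0.75 and USP35 at 0.33, USP45 at -0.62 and USP16 at 0.27, and STAMBPL1 at -0.73 and STAMBP at -0.02. Other relatives had like differences: USP53 and USP54, OTUB2 (0.76) and OTUB1 (0.53), and JOSD1 and JOSD2. Like USP12, the genes USP35, USP45, USP53 and USP54 had mean levels under 8. Over all genes whose dimmer probe was under 8 the probe SD was 0.40. USP24 (-3.04) and USP9X (-1.998) were both lower. In the trio USP4, USP11 and USP15 the differences were 0.05, 0.72 and 0.15. Whether a probe also binds the transcript of a close relative was not tested.

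Genomic length moved with these differences. The 51 genes had a median length of 56.1 kb, against 27.4 kb for all named genes, and the 7 lower ones a median of 118.1 kb against 48.1 kb for the other 44. The rank correlation of length with difference (Spearman's rho) was -0.56 over the 51 genes and -0.34 over the 11571 named genes with a length, as descriptions, since all points share the same 2 arrays. Named genes were then divided at the deciles of length into 10 bins. Of the 51 genes 15, USP6NL included, were in the 2 bins of the longest genes. Of these 15, 4 (26.7%) were at least 2-fold lower, against 19.9% of all genes in these bins, and the medians were -0.62 and -0.21. In the next 3 bins 2 of 22 were lower (9.09%, against 9.54%), with medians of -0.32 and 0.01. In the 5 bins of the shorter genes, OTUD6B-AS1 included, it was 1 of 14 (7.14%, against 2.83%), with medians of 0.23 and 0.23, and that gene was YOD1 (9.27 kb). These shares rest on counts of 4, 2 and 1. The part of length in each difference was not tested. With the trend on length removed the same 7 genes remained at least 2-fold lower (13.7%, against 8.05% of genes with a length). USP24 was then at -2.82, USP14 at -2.14, USP9X at -1.78 and YOD1 at -1.74, and the median of the 51 was -0.17 against 0.

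**Figure D4:**
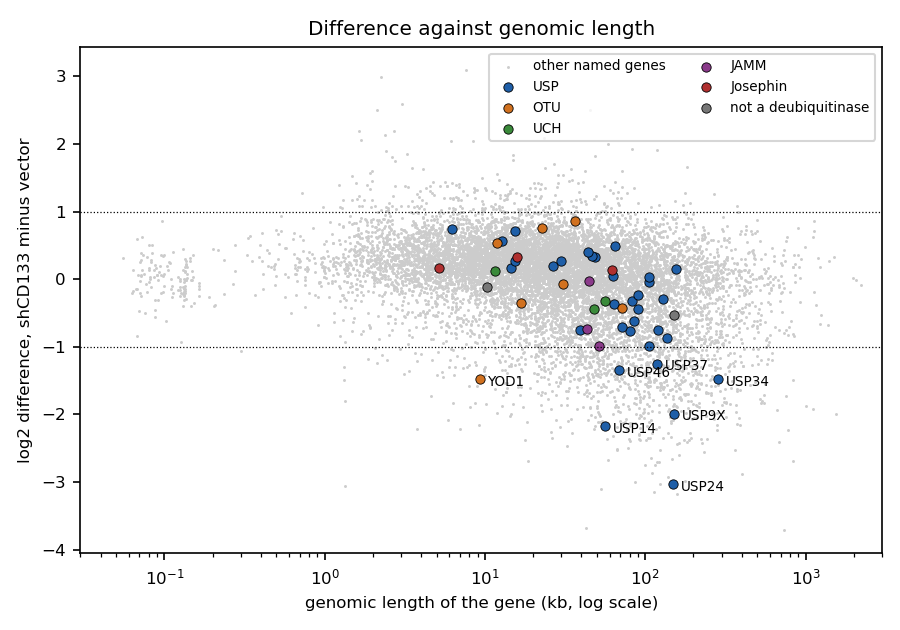
Log2 difference (shCD133 minus vector) against the genomic length of the gene (kb, log scale) for the 51 genes, coloured by family, over the other named genes in grey, with dotted lines at 2-fold. The 6 lower USP genes are 56.1 kb or longer, whereas YOD1 is 9.27 kb long.

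Deubiquitinases work with partner subunits, and a list of 26 partner and scaffold genes was examined beside them. Of these 23 had a value. At least 2-fold lower were 3 (13.04%, against 8.26% of all named genes) and at least 2-fold higher was 1 (2.08% of all named genes were), and their median was 0.12, close to that of all named genes (0.11). WDR48, the activator of USP1, USP12 and USP46, read 10.68 on the vector array against 9.44 after shCD133 (-1.24). Its co-factor WDR20 read 10.11 and 10.31 and had probes on both sides of 0. WDR48 and USP46 were thus both past 2-fold, while USP1 (0.27, its other probe -0.27) was not. DMWD, listed with these genes, read 8.48 and 9.16 (0.68).

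On the proteasome the deubiquitinases had unlike values. USP14 was at -2.18 and UCHL5 at -0.44, whereas the JAMM subunit PSMD14 read 12.39 and 12.35 (-0.04), and ADRM1, the ubiquitin receptor that binds UCHL5, differed by 0.21. BRCC3 serves in BRISC, which acts in the cytoplasm, and in BRCA1-A, which acts at DNA breaks. Its scaffold in BRCA1-A, ABRAXAS1, read 10.01 and 8.63 (-1.38), and its scaffold in BRISC, ABRAXAS2, read 11.32 and 10.65 (-0.67). The shared subunits BABAM1 (0.31) and BABAM2 (-0.03) and the ubiquitin-binding UIMC1 (-0.28) differed less. Both complexes were listed as 1 group. SHMT2, placed in that group, lay above 0 as BABAM1 did, from 12.66 to 13.25 (0.60).

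In the SAGA module all 4 measured genes lay above 0, as did 6857 of all 11579 named genes, whose median was 0.11. ATXN7L3, the adaptor that activates USP22, read 9.68 and 10.68, a difference of 1.00, followed by USP22 (0.41), ATXN7L2 (0.23) and ENY2 (0.12). At the endosome STAM differed by -0.74, STAMBPL1 by -0.73 and USP8 by -0.45, while HGS (0.07), STAM2 (-0.10) and STAMBP (-0.02) differed little. Of the ASXL and FOXK chromatin partners, ASXL2 read 10.13 and 7.998, a difference of -2.13, whereas its relative ASXL1 read 11.002 and 11.24 (0.23). FOXK1 stood at 0.69 (its other probe at 0.13). OGT, which attaches N-acetylglucosamine to proteins, stood at -0.66, and its other probe was past 2-fold at -1.02.

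**Figure D5:**
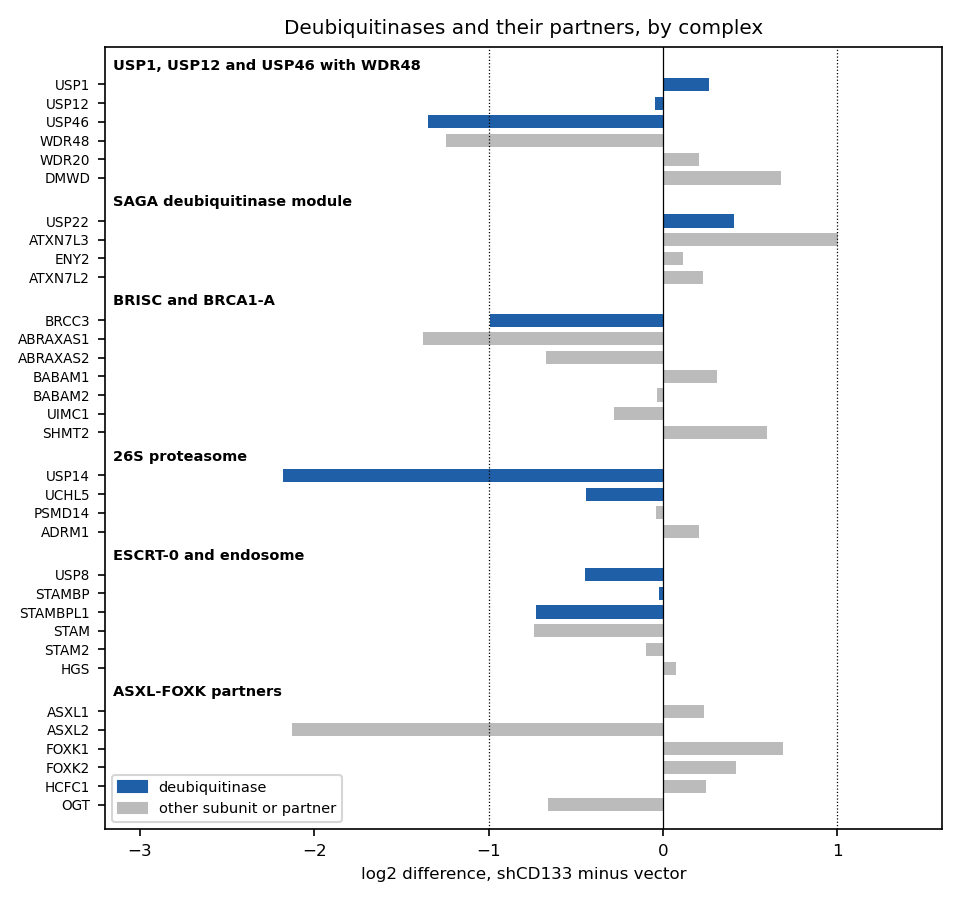
Log2 difference (shCD133 minus vector, bars from 0) of deubiquitinases (blue) and of their partners (grey), grouped by complex, with dotted lines at 2-fold and 1 array per condition. USP46 and WDR48, USP14, ABRAXAS1 and ASXL2 lie past 2-fold on the lower side, ATXN7L3 reaches it on the higher side, and BRCC3 is just short of it.

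Of 17 measured deubiquitinases and relatives that the symbol rule misses none was 2-fold different, where 8.26% of all named genes were lower and 2.08% higher. The tumour suppressor CYLD was at -0.02 with dim values (7.55 and 7.53), USPL1, which acts on SUMO, at -0.67, and PAN2, an RNA deadenylase with a USP-like domain, at 0.33. Among 7 cysteine-type genes, MINDY3 stood at -0.63, VCPIP1, which like YOD1 works with VCP, at -0.52, OTULIN, specific for linear chains, at 0.51 and the NF-kB inhibitor TNFAIP3 at 0.50. Among 7 JAMM genes, COPS5, the catalytic subunit of the COP9 signalosome, was lowest at -0.78 (12.42 and 11.65), with COPS6 at 0.44 and MPND at 0.42. Of 11 measured proteases for SUMO and other ubiquitin-like proteins, SENP5 (-1.62, its other probe -0.49) and DESI2 (-1.09) were at least 2-fold lower (18.2%, against 8.26% of all named genes), followed by SENP6 at -0.86. The ubiquitin gene UBB, the 1 precursor gene with a value, read 15.02 and 15.13, near the top of the scale. USP18, left out by the rule, read 8.40 and 8.95.

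Upstream sequences were compared because the series concerns a transcription factor and several of these genes were lower together. RefSeq promoter entries (GRCh38.p14) were found for 42 of the 51 genes and for 4 of the 7 lower ones. The 250 bases before the outermost start among a gene's promoter entries were searched on both strands. Such a window can lie inside the annotated gene, as that of YOD1 does, and the counts below were not divided by this. For the lower genes USP14, USP34 and USP46, whose windows lie outside the gene, they are shown 5′ to 3′ on the gene's strand, with the GC box GGGCGG, the site of SP-family factors, or its reverse complement in capitals.
USP14, chr18:158307-158556, plus strand: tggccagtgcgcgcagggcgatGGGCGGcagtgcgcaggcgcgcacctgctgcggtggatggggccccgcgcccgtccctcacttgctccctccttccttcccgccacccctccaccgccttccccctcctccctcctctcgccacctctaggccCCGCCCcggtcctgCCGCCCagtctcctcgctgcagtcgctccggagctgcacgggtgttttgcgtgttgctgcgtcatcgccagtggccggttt
USP34, chr2:61471088-61471337, minus strand: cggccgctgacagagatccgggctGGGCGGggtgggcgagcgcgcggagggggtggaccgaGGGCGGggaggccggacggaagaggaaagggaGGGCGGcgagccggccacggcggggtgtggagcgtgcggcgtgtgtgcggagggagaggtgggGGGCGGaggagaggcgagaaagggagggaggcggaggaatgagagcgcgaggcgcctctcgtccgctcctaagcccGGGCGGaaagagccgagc
USP46, chr4:52659302-52659551, minus strand: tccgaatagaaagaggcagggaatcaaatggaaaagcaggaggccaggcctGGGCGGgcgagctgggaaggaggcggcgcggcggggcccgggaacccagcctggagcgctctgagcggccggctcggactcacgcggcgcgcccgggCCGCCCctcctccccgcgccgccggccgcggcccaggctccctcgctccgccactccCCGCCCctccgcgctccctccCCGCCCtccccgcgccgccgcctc

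These windows are rich in G and C, at 72.0%, 74.8% and 78.0%, with 3, 5 and 4 GC boxes. The window of YOD1, the fourth lower gene with an entry, lies inside the annotated gene and is not shown. It held 47.6% G and C, 1 GC box and 2 CCAAT boxes. The median was 69.0% over the 42 windows and 64.4% over those of 9356 named genes. The GC box was found in 32 of 42 windows (76.2%) against 65.8% of the windows of named genes. The STAT element TTCNNNGAA was in none of the 42 windows, against 5.56% of the windows of named genes. The other motifs searched were the cyclic AMP element TGACGTCA (in 0 of 42, against 2.93%), the E-box CACGTG (in 2, against 9.12%), the ETS core CCGGAAGT (in 5, against 7.31%) and CCAAT (in 14, against 35.8%). A match is a run of letters and not a measured site, and these counts describe the windows only.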

How the data were processed

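Gene expression was read on an Illumina bead array from 2 samples of total RNA, 1 per condition. The values used are the authors' deposited log2 intensities, normalized between arrays by a method the sources used here do not name. Rank by rank the arrays' values differed by at most 0.00044, as after quantile normalization. The log base was read as 2 from the range (6.65 to 15.6). GenomeStudio 2011.1 is named in the submitters' processing notes. Of 47323 probes, 19665 had a value on both arrays, and the sources used here do not name the filter that made the rest null. No detection call was used. A further 4 per-sample columns matched no sample's labels and were not used.

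Probes were named from a platform annotation dated 2016, updated by gene identifier through RefSeq (GRCh38.p14), and genomic lengths come from the same table. Only probes with 1 symbol were used (15205). Computation used Python 3.11.15 with pandas 2.3.3 and statsmodels 0.14.6. The calculations were tested on simulated data. There was no replicate and no test, and array number limits the precision. Named genes were, by rule, PROM1, every 2-fold different deubiquitinase and those within 0.1 of the threshold, the family extremes, the 5 brightest, those with discordant probes, close relatives, and the leading partner genes. Further genes named, such as those of each complex, and the motifs were chosen after values were seen. The members and all lists were chosen with earlier results of these data known. The alternatives were other probe choices, centring, background subtraction, removal of trends with level and with gene length, a filter on dim genes, strict membership and a 1.5-fold threshold.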

Additional observations from a re-analysis of the deposited data

How the results depend on the processing

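All 7 genes that were at least 2-fold lower remained so under each of 6 alternative settings (mean over probes, dimmest probe, centring, background subtraction, and removal of the trend with level or with length), and none changed direction. Several settings could not have removed a call. USP24, USP34, USP37 and YOD1 have 1 probe, so the choice of probe leaves them unchanged. Centring lowered every difference, and background subtraction enlarges each one. Removal of the trend with level also made all 7 lower. The count of lower members was 7 with the trend on length removed, where 8.05% of all genes were lower. It was 8 with the mean over probes (7.05% of all genes) or the dimmest probe (6.58%). After centring it was 9 (10.1%), and with the trend on level removed 10 (10.8%), so calls rose over all genes too. It was 7 with the filter on dim genes (10.5%) and with strict membership (8.26%). Subtraction of a constant background gave 13 (25.5% of members, against 12.0% of all genes), with BRCC3, STAMBPL1, USP13, USP45, USP47 and USP49 added. At 1.5-fold it was 16 (31.4%, against 16.3%). The count of higher genes was 0 at 2-fold except for 1 after background subtraction (OTUB2, 1.10), which is 1.96% against 4.99% of all genes. At 1.5-fold 4 were higher (7.84%, against 12.3%). The median difference of -0.23 became -0.35 after centring on the median gene, -0.37 with the trend on level removed and -0.17 with the trend on length removed, where the median of all genes is 0 by construction. Other settings left it between -0.28 and -0.23. The USP median (-0.30) was -0.11 with the trend on length removed and -0.50 after background subtraction. The OTU median (-0.07) was 0.09 over the 6 genes with a level of at least 8. No paired analysis was possible because each group has 1 array. With no second array, no replicate could be left out, and dim signals limit the size of the lower values.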
